A study of Mus musculus with 22 samples.

Results

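The enzymes that make, load and trim small RNAs were followed as a group of 10 genes in mouse lumbar spinal cord: the exoribonuclease genes Eri1, Eri2 and Eri3, the histone stem-loop binding gene Slbp, the nucleases Drosha and Dicer1 with the Drosha partner Dgcr8, and the Argonaute genes Ago1, Ago2 and Ago3. They were found by symbol among the 17306 genes of the table, and all 10 passed the filter on low values, as did 16765 genes in all. Eri1 had been chosen by its values under SAFit2 in the late mice and over both timings, so its levels are given here as a description without a test, and every count of called genes below is over the 9 other genes.

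Small RNA production runs through a fixed order of steps. The Microprocessor, made of Drosha and Dgcr8, cuts hairpins out of primary microRNA transcripts in the nucleus, Dicer1 cuts the exported hairpin to a short duplex, and an Argonaute protein keeps a single strand and, with a protein of the Tnrc6 family, lowers the translation and stability of matching mRNAs. Eri1 is a 3′ to 5′ exoribonuclease that trims the end of 5.8S ribosomal RNA and degrades histone mRNA bound by Slbp, and it is known to reduce small interfering RNA and microRNA levels. The libraries were made from mRNA, so these genes were measured as transcripts and no mature microRNA was.

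All 22 mice were wildtype C57BL6J males of 12 to 14 weeks, and all had received 1 mg of monoiodoacetate (MIA), which blocks glycolysis and injures cartilage cells, in the knee joint. SAFit2, an inhibitor of the glucocorticoid receptor co-chaperone FKBP51, was given at 100 mg/kg in a vesicular phospholipid gel (VPG), and Vehicle mice received the gel alone. The 5 Early SAFit2 and 6 Early Vehicle mice were injected on days -3 and 4 by the study's methods, where the protocol in the labels gives days 3 and 4, and the 5 Late SAFit2 and 6 Late Vehicle mice on days 20 and 27. Tissue was taken on day 30. The tissue was the quadrant of lumbar spinal cord on the injected side, which the study describes as dorsal horn. Each mouse gave a library of its own. Early and Late are also the batch labels of the samples, so time of injection and batch cannot be told apart. No group without MIA was among the samples analysed here. In the Early SAFit2 group the titles name SAFit1, and the treatment label, SAFit2, was followed.

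Values are log2 CPM, the log2 of the read count scaled to a common library size, and a difference of 1 on this scale is a doubling. Libraries held between 11352989 and 24433349 reads on genes. They differed in how values depended on the base composition of a gene: the GC slope of a library, its trend in log2 CPM per 10% of GC content relative to the mean of all libraries, was negative in all 5 Late SAFit2 mice, from -0.48 to -0.07, and spanned -0.34 to 0.50 in Late Vehicle mice, with a group difference of -0.48 (exact permutation test, two-sided, p = 0.0303). The GC slope also differed by -0.40 between Late and Early SAFit2 mice (exact permutation p = 0.0159), and by 0.14 between Late and Early Vehicle mice (exact permutation p = 0.368). The trend on transcript length, per doubling of length, differed by -0.096 between Late and Early SAFit2 mice (exact permutation p = 0.0317). Late SAFit2 replicate 5 stood apart from the other libraries with the lowest scaling factor, 0.774. Of 38 tested markers of 11 cell types, including Schwann cells, muscle and red cells that could come with the tissue, 3 were called lower under SAFit2 in the late mice and none was called in the early comparison. Of all genes 6.72% were called lower in the late comparison, and 0% were called in the early one. Between the timings 3 markers were called higher in Late Vehicle than in Early Vehicle mice, and 8 in Late SAFit2 than in Early SAFit2 mice. The 8 included 2 each of astrocytes, microglia and ependymal cells. Of all 16765 genes 552 and 1543 were called higher in these comparisons. The summed microglia markers were between 126 and 151 CPM in Early SAFit2 and between 157 and 194 CPM in Late SAFit2 mice, and the part of cell makeup in the timing results was not tested. In Late SAFit2 mice the summed Schwann cell markers ran from 1 CPM in replicate 2 to 2690 CPM in replicate 5, and the summed skeletal muscle markers reached 120 CPM in replicate 3, against at most 6.75 CPM in the other groups. In whole tissue, fewer cells of a type and less RNA per cell cannot be told apart.

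A pair of microRNA hairpins lies in the Dgcr8 transcript itself, and the Microprocessor is known to cut its own partner's mRNA at such a hairpin. The mature microRNAs of both hairpins are shown because they are the part of a member gene that is also a substrate of the enzymes studied. All are on the minus strand of chromosome 16 (RefSeq, GRCm38.p6), within Dgcr8. Capitals mark the seed, bases 2 to 8, by which a microRNA pairs with its targets, and the 4 seeds differ from each other.
miR-1306-5p, chr16:18284288-18284310: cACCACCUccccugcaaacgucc
miR-1306-3p, chr16:18284248-18284268: aCGUUGGCucugguggugaug
miR-3618-5p, chr16:18284602-18284623: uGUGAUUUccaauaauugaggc
miR-3618-3p, chr16:18284562-18284583: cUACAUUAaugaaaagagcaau

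Per kilobase of exon, Eri3 and Drosha had the highest levels of the 10 transcripts and Ago3 the lowest. The mean over 22 mice, as log2 CPM per kb of merged exons, was 4.80 ± 0.26 (SD) for Eri3, 4.35 ± 0.17 for Drosha, 3.49 ± 0.13 for Ago1, 2.64 ± 0.25 for Slbp and 1.82 ± 0.21 for Dgcr8. Below these were Dicer1 at 1.01 ± 0.28, Eri1 at 0.93 ± 0.29, Ago2 at 0.55 ± 0.50, Eri2 at 0.01 ± 0.53 and Ago3 at -1.76 ± 0.99. Dicer1 and Eri1 were neighbours within their spread, as were Eri1, Ago2 and Eri2. With the longest transcript in place of merged exons, Slbp came before Ago1 and the rest of the order was the same. Drosha transcript was thus above that of Dicer1, which acts on its products, and Ago1 was the most abundant of the Argonaute transcripts measured here, ahead of Ago2, the Argonaute with slicing activity.

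**Figure D1:**
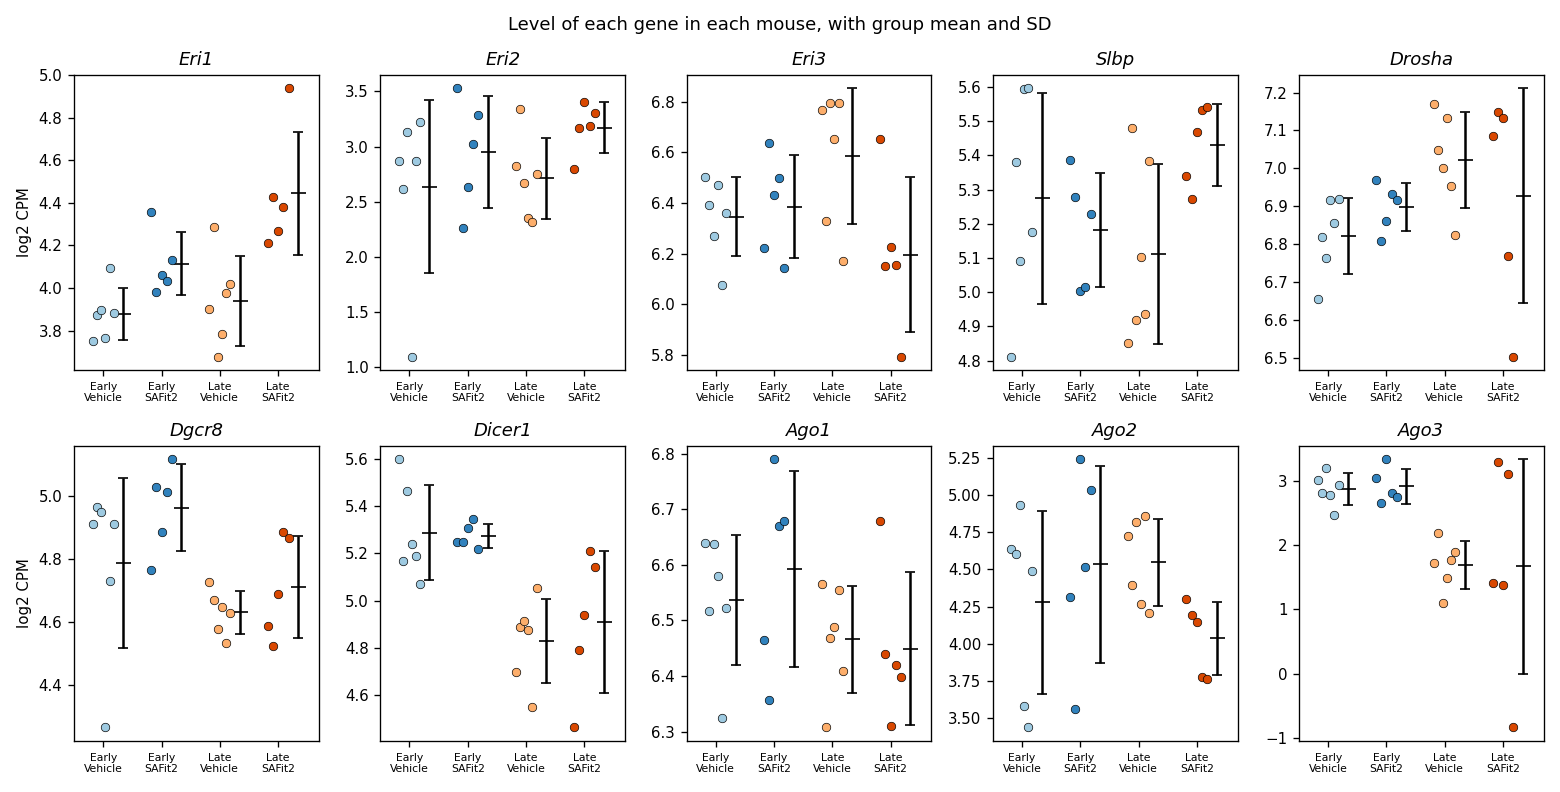
Log2 CPM (y axis) of each of the 10 genes in each mouse of the 4 groups (x axis), with a bar for the group mean and SD, on a y axis of its own for each gene. Dicer1 of both late groups lies below the early group of the same treatment, and Ago3 spreads from -0.83 to 3.29 in Late SAFit2 mice.

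The late groups addressed which transcripts differ when SAFit2 has been given late in the course of the joint pain model. Eri1 (Entrez 67276, GRCm38 chr8:35465253-35496196, minus strand) was at 4.21, 4.43, 4.27, 4.38 and 4.94 log2 CPM in the 5 Late SAFit2 mice. In the 6 Late Vehicle mice it was at 3.90, 4.29, 3.68, 3.78, 3.98 and 4.02. The Late SAFit2 mice were all above 5 of the 6 Late Vehicle mice and overlapped with the remaining mouse. The log2 fold change was 0.50 ± 0.14 (SE), a ratio of 1.42, and without Late SAFit2 replicate 5, whose Eri1 was the highest of all 22 mice, it was 0.38 ± 0.13.

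In the early groups Eri1 was at 4.36, 3.98, 4.06, 4.03 and 4.13 under SAFit2. Under Vehicle it was at 3.75, 3.87, 3.90, 3.77, 4.10 and 3.89. The early difference, 0.24 ± 0.14, had the same sign and less than the size of the late one, and the early minus late difference of these effects was -0.27 ± 0.20. Over both timings the mean SAFit2 effect was 0.37 ± 0.10. Each Eri1 value rested on 180 to 396 reads.

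Eri1 followed the GC slope of the libraries. Its transcripts have a mean GC content of 43.2%, at percentile 16.9 of the genes tested, and over the 22 libraries its level had a Pearson r of -0.74 with the GC slope, and of -0.66 after group means were removed, both given as a description. The highest Eri1 in each group came from a library with a negative slope: Early SAFit2 replicate 1, Early Vehicle replicate 5, Late Vehicle replicate 2 and Late SAFit2 replicate 5. After the trends on GC content and transcript length were taken from each library, the late difference in Eri1 was 0.21 ± 0.11 and the early one, 0.24, was almost as before. With that correction and the replicate block the late difference was 0.19 ± 0.11, and with the GC slope as a covariate it was 0.24 ± 0.14. These fits also take away any treatment effect that follows GC content.

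The genes most like Eri1 over the 22 libraries, among 13228 genes with a mean log2 CPM of at least 1, were Cd164 (Pearson r = 0.91, Spearman rho = 0.87), Lrrc58 (0.90 and 0.83), Akirin1 (0.89 and 0.80), Acer3 (0.88 and 0.83) and Cert1 (0.87 and 0.85). Among the least like were Twf2 (r = -0.89, rho = -0.80), Ccar2 (-0.88 and -0.85), Faap100 (-0.88 and -0.75) and Mri1 (-0.88 and -0.77). These libraries share their group and their GC slope: the 100 most like genes had a median GC content of 41.4%, the 100 least like genes 56.8%, and the 13228 genes 49.7%.

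The other exoribonucleases of the family did not move as one in the late comparison. Eri3 (GRCm38 chr4:117550365-117674297), whose product is related to Eri1 but has no settled role, was at 6.65, 6.15, 6.23, 6.15 and 5.79 log2 CPM in Late SAFit2 mice. In Late Vehicle mice it was at 6.77, 6.33, 6.79, 6.65, 6.79 and 6.17. Of the 5 Late SAFit2 mice 4 were below 5 of the 6 Late Vehicle mice, and the groups overlapped. The log2 fold change was -0.39 ± 0.14 with an adjusted p of 0.0576 in limma and an exact permutation p of 0.0519, and the gene was not called.

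Eri3 is the GC-rich counterpart of Eri1, with a GC content of 59.3%, at percentile 94.0 of the genes tested. Its level had an r of 0.86 with the GC slope of the library, and of 0.85 after group means were removed. After GC and length correction its late log2 fold change turned to 0.04 ± 0.08. Within groups Eri1 and Eri3 ran opposite to each other, with an r of -0.79 over 22 libraries, the lowest of any pair of the 10 genes.

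Eri2, a family member of still unclear function in mammals, was between 2.79 and 3.40 in Late SAFit2 mice with a median of 3.19. In Late Vehicle mice it ran from 2.32 to 3.34 with a median of 2.71. Its late log2 fold change was 0.46 ± 0.29, with an adjusted p of 0.269 and an exact permutation p of 0.0476. Eri2 has a GC content of 40.0%, at percentile 5.98 of the genes tested. After GC and length correction its late log2 fold change was 0.05 ± 0.26, with an adjusted p of 0.95 in limma. With the GC slope as a covariate it was 0.14 ± 0.36. Eri2 lies opposite Acsm3 over 18835 bases and opposite the start of Rexo5 over 53 bases, and whether reads were counted by strand is not given in the sources used here, so reads of these genes may not be told apart.

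Slbp, whose protein binds the stem-loop that ends histone mRNAs, was at 5.34, 5.27, 5.47, 5.53 and 5.54 log2 CPM in Late SAFit2 mice. In Late Vehicle mice it was at 4.85, 5.48, 4.92, 5.10, 4.94 and 5.38. The 4 Late Vehicle mice with a positive GC slope were below all Late SAFit2 mice, and the 2 with a negative slope overlapped with them. For Slbp the late log2 fold change was 0.32 ± 0.14, with an adjusted p of 0.111 and an exact permutation p of 0.0433. Slbp had an r of -0.80 with the GC slope after group means were removed, and with the GC slope as a covariate its late log2 fold change was -0.06 ± 0.12.

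**Figure D2:**
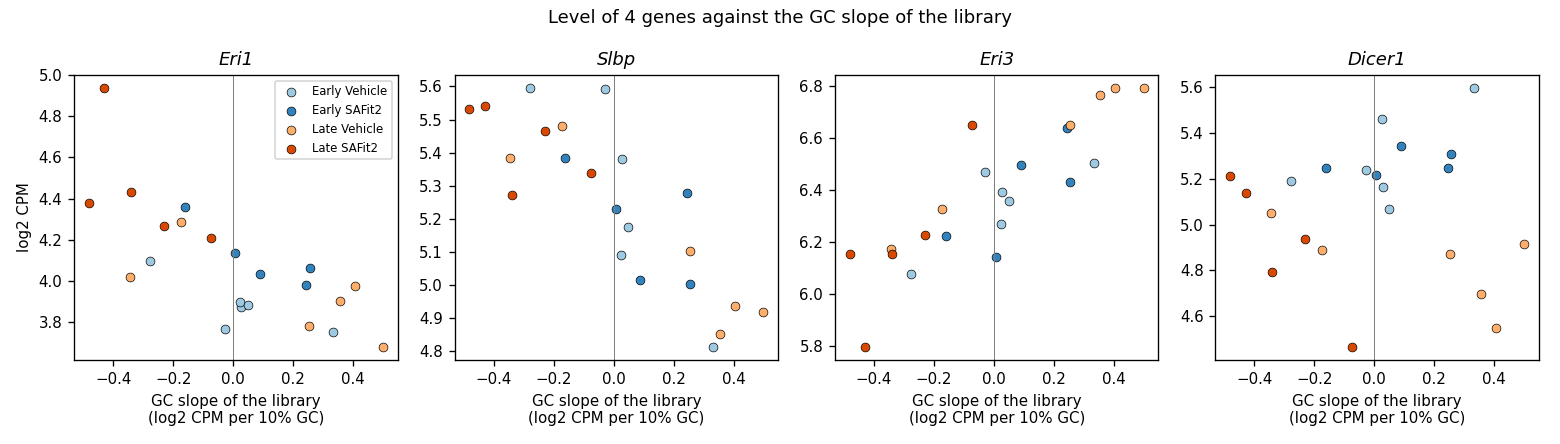
Log2 CPM of Eri1, Slbp, Eri3 and Dicer1 (y axes) against the GC slope of the library (x axis, log2 CPM per 10% GC) for 22 mice coloured by group. Eri1 and Slbp are higher and Eri3 lower in libraries of negative slope, with r of -0.74, -0.84 and 0.86, while Dicer1 has an r of -0.07.

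Of the Argonautes, Ago2 was lower in most Late SAFit2 mice. It was at 4.30, 4.19, 4.15, 3.78 and 3.76 log2 CPM there, against 4.73, 4.40, 4.82, 4.27, 4.86 and 4.21 in Late Vehicle mice. The 4 lowest of the 11 values were all from Late SAFit2 mice. Ago2 thus had a late log2 fold change of -0.51 ± 0.26, with an adjusted p of 0.166 and an exact permutation p of 0.0195. In the early mice Ago2 spread from 3.44 to 5.24, wider than in either late group, with an early log2 fold change of 0.25 ± 0.26. Ago2 followed the trend on transcript length of a library, with an r of 0.91 after group means were removed, and its longest transcript is at percentile 99.4 of the lengths of the genes tested. After GC and length correction its late log2 fold change was -0.52 ± 0.21, with an adjusted p of 0.239 in limma, and with the GC slope as a covariate it was -0.07 ± 0.30. Ago2 overlaps Chrac1 on the opposite strand over 1711 bases, with the same doubt about strand as for Eri2.

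The core enzymes were close between Late SAFit2 and Late Vehicle mice. The late log2 fold change was -0.09 ± 0.10 for Drosha, 0.08 ± 0.12 for Dgcr8, 0.08 ± 0.13 for Dicer1 and -0.02 ± 0.09 for Ago1. For Ago3 it was -0.02 ± 0.44, an error that left a wide range of effects undecided. Ago3 in Late SAFit2 mice was at 1.41, 3.29, 1.37, 3.11 and -0.83 log2 CPM, the last from 4 reads, so 2 mice were at the level of the early groups and 1 far below every other mouse. Without Late SAFit2 replicate 5 the Ago3 difference was 0.60 ± 0.31, with an adjusted p of 0.202.

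In the late comparison 0 of the 9 tested genes were called in limma, which required an adjusted p under 0.05 together with a change of at least 1.2 times, where 12.1% of all genes were called and 6.72% were called lower. By limma voom on the recovered reads the count was also 0, and 2 genes, Slbp and Eri3, had an unadjusted p under 0.05 by either tool, as did 34.5% of all genes in limma. In the early comparison 0 of the 9 were called, as were 0% of all genes, and none had an unadjusted p under 0.05 by limma or voom. Early log2 fold changes were between -0.09 for Slbp and 0.31 for Eri2. With single mice left out that of Eri2 ran from 0.0059 to 0.48. For the mean effect over both timings 0 of the 9 passed by limma or by voom, where an unadjusted p under 0.05 was asked and 13.2% of all genes passed. The nearest by limma and by an exact permutation test within timings were Eri2 and Eri3. Eri2 was at 0.39 ± 0.21 (p = 0.0744 in limma, exact permutation p = 0.0866) and Eri3 at -0.17 ± 0.10 (p = 0.0853 in limma, exact permutation p = 0.132). After GC and length correction they were at 0.18 ± 0.19 and 0.03 ± 0.06.

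The early and the late effect were also compared with each other. None of the 9 genes, and 0% of all genes, differed at an adjusted p under 0.05 in limma, and voom called 0 of the 9. An unadjusted p under 0.05 was found for 3 genes by limma, Eri3 with an early minus late difference of 0.43 ± 0.20, Slbp with -0.41 ± 0.20 and Ago2 with 0.76 ± 0.37, and for 1 gene by voom. In limma 24.9% of all genes had such a p. After GC and length correction the difference was -0.03 for Eri3 and 0.70 for Ago2.

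**Figure D3:**
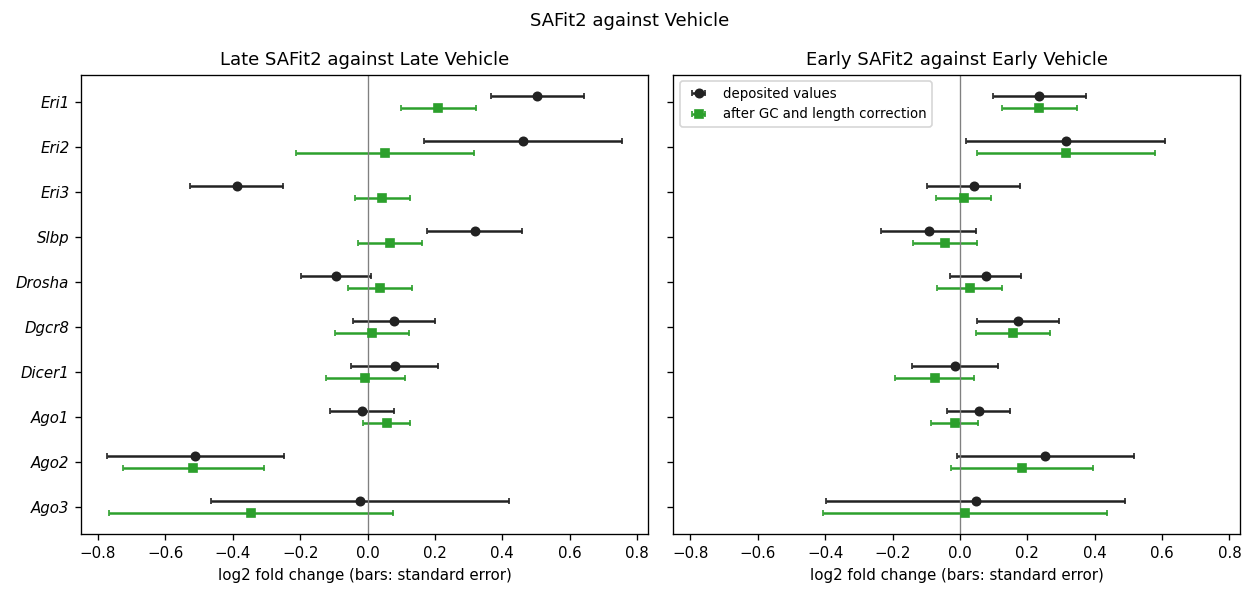
Log2 fold change (x axis) of SAFit2 against Vehicle mice for the 10 genes (y axis) in late mice (left) and early mice (right), with standard errors as bars, from the deposited values (circles) and after GC and length correction (squares). In late mice Eri1 goes from 0.50 to 0.21 and Eri3 from -0.39 to 0.04 with the correction, while Ago2 goes from -0.51 to -0.52.

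The clearest difference among the 9 genes was between late and early mice, in Dicer1 (Entrez 192119, GRCm38 chr12:104687742-104751952, minus strand). In Early Vehicle mice Dicer1 was at 5.60, 5.17, 5.46, 5.24, 5.19 and 5.07 log2 CPM. In Late Vehicle mice it was at 4.70, 4.89, 4.91, 4.87, 4.55 and 5.05, all below every Early Vehicle mouse. Dicer1 fell by 0.46 on the log2 scale (SE 0.12), to 0.727 of the early level, with an adjusted p of 0.0177 in limma and an exact permutation p of 0.00216, the smallest that 924 splits can give.

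The SAFit2 mice, a separate set of animals, gave Dicer1 values of the same order. Early SAFit2 mice were at 5.25, 5.25, 5.31, 5.34 and 5.22, within a narrow range, and Late SAFit2 mice at 4.46, 4.79, 4.94, 5.21 and 5.14. These groups did not overlap either, but only just: the highest late value was 5.211 and the lowest early value 5.216. The log2 fold change of -0.36 ± 0.13 had an adjusted p of 0.0532 in limma and was not called, by voom it was called with an adjusted p of 0.0414, and the exact permutation p of 0.00794 was the smallest that 252 splits can give. This comparison was added after values were seen. Dicer1 has a GC content of 47.3% and an r of -0.07 with the GC slope, and after GC and length correction the Vehicle difference was -0.39, with an adjusted p of 0.0158. The SAFit2 difference after that correction was -0.33, with an adjusted p of 0.0689 in limma. Without Late Vehicle replicate 5, whose Dicer1 was the lowest of its group, the Vehicle difference was -0.40 with an adjusted p of 0.0531.

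Ago3 (Entrez 214150, GRCm38 chr4:126331704-126429556, minus strand) was the other member with a gap between timings. In Early Vehicle mice it was at 3.02, 2.81, 3.20, 2.78, 2.47 and 2.93 log2 CPM, and in Late Vehicle mice at 1.73, 2.18, 1.10, 1.48, 1.77 and 1.89, without overlap. The log2 fold change was -1.18 ± 0.42, to 0.443 of the early level, with an adjusted p of 0.0787 in limma, for which it was not called, and an exact permutation p of 0.00216. By voom the adjusted p was 0.0143, and without Late SAFit2 replicate 5, whose 4 reads widen the error shared by all groups, it was 0.00806. After GC and length correction the Vehicle difference was -0.965, with an adjusted p of 0.101 in limma. With the GC slope as a covariate it was -1.124, with an adjusted p of 0.0807. In SAFit2 mice the groups overlapped, with 2 of 5 late mice within the early range of 2.65 to 3.33, and the log2 fold change was -1.24 ± 0.46 with an adjusted p of 0.0561 in limma and 0.0313 in voom, or -0.62 ± 0.32 with an adjusted p of 0.197 without Late SAFit2 replicate 5. Ago3 lies beside Ago1 on chromosome 4, and Ago1 had a log2 fold change of -0.07 ± 0.09 between the Vehicle groups.

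The stretches of 250 bases before the starts of Dicer1 and Ago3 are shown because both members were lower in late mice. They are from RefSeq (GRCm38.p6) on the strand of the gene, 5′ to 3′. Capitals mark the CCAAT box, also as its reverse complement ATTGG, and the GC box GGGCGG, also as its reverse complement CCGCCC.
Dicer1, chr12:104751953-104752202, minus strand: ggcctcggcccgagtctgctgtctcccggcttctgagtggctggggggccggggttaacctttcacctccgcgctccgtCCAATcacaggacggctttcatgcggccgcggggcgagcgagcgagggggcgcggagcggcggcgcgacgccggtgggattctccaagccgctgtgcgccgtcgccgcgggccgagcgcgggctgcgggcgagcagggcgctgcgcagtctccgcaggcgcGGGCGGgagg
Ago3, chr4:126429543-126429792, minus strand: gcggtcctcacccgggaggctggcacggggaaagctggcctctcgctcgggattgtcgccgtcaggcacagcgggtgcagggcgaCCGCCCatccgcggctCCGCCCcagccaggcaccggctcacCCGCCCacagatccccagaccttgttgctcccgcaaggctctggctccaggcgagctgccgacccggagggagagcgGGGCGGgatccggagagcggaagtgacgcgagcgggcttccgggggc

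Both stretches are rich in GC, 76.0% for Dicer1 and 73.6% for Ago3, and hold 39 and 27 CpG dinucleotides. Within the window of 300 bases that adds the 50 bases after the start, Dicer1 had 1 match to the CCAAT box and 2 to the GC box on either strand, and Ago3 had 0 and 5. Of 32851 promoter windows of this length, 37.4% held the first of these motifs and 35.7% held the other, counted on both strands. TGTTCT, part of the binding motif of the glucocorticoid receptor, or its reverse complement AGAACA was in 19.0% of all windows and in none of those of the 8 members with a promoter in the table. A match is a description of letters and not of a bound site.

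Between the Vehicle groups 1 of the 9 genes, Dicer1, was called, against 9.11% of all genes, and 5.82% of all genes were called lower in late mice. Both Dicer1 and Ago3 were below the early mice without overlap, as were 3.6% of all genes. Between the SAFit2 groups 0 of the 9 were called in limma, 2 had an unadjusted p under 0.05 and 2 were called by voom, with 20.5% of all genes called and 11.3% called lower. Of the 9 genes 1, Dicer1, was lower without overlap between the SAFit2 groups, as were 7.42% of all genes, and Dicer1 was lower without overlap in both treatments, as were 1.69% of all genes. The shares of all genes show how widely the early and late mice differed.

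None of the other members was called between the timings. Ago2 had late minus early log2 fold changes of opposite sign, 0.27 ± 0.25 in Vehicle mice and -0.50 ± 0.27 in SAFit2 mice, with adjusted p of 0.553 and 0.194 in limma. Drosha was higher in most Late Vehicle mice, from 6.82 to 7.17 against 6.65 to 6.92 log2 CPM, with a log2 fold change of 0.20 ± 0.10, an adjusted p of 0.216 and an exact permutation p of 0.013. Within groups Drosha and Dicer1 ran opposite to each other, with an r of -0.63 over 22 libraries. Dgcr8, which overlaps Trmt2a on the opposite strand over 825 bases, in Late Vehicle mice was within 4.53 to 4.73 and in Early Vehicle mice within 4.27 to 4.97, with a log2 fold change of -0.16 ± 0.12. Between the SAFit2 groups its log2 fold change was -0.25 ± 0.13, with an adjusted p of 0.155.

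**Figure D4:**
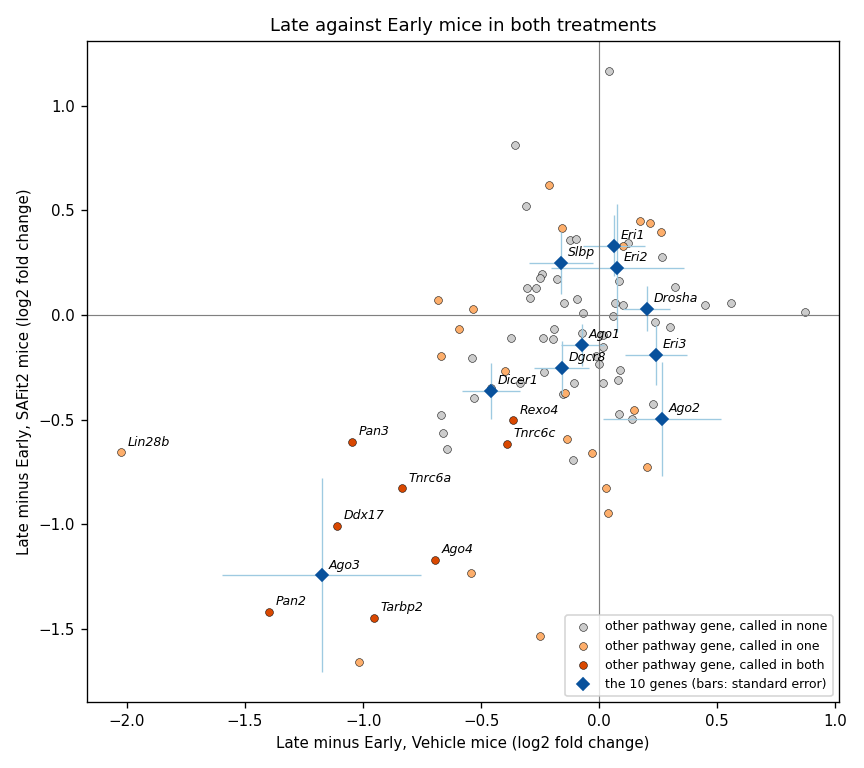
Late minus early log2 fold change in Vehicle mice (x axis) and in SAFit2 mice (y axis) for the 10 genes (diamonds, with standard errors) and the 82 other pathway genes tested (circles, coloured by whether limma called them in neither, either or both treatments). Dicer1 and Ago3 lie in the lower left with the 8 pathway genes called lower in both, from Rexo4 to Pan2.

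The wider machinery was covered by 9 lists with 82 tested genes beside the members. Between the Vehicle groups 14 of the 82 were called, all 14 lower in late mice and none higher. That is 17.1% against the 5.82% of all genes called lower, and the median log2 fold change was -0.15 against 0.01 over all genes. The lists were chosen with earlier results of these data known. This share and those of the lists below are thus descriptions and not tests. With median centring the calls were 10 lower and 3 higher, where 816 and 1198 of all 16765 genes were called. After GC and length correction they were 13 lower and 6 higher, against 1303 and 1269 of 16213 genes. With the GC slope as a covariate they were 14 and 2, against 1367 and 966 of 16765 genes. Library quality weights gave 27 lower and 7 higher, against 2642 and 2425 of all genes. Without Late Vehicle replicate 1 the count was 9, where 944 of all genes were called. Between the SAFit2 groups 18 were called lower and 6 higher, which is 29.3% of the 82. Of all genes 20.5% were called and 11.3% were called lower. With median centring they were 15 lower and 11 higher, where 1321 and 2590 of all 16765 genes were called. After GC and length correction they were 16 and 3, against 1468 and 1089 of 16213 genes. With the GC slope as a covariate they were 10 and 0, against 703 and 459 of 16765 genes.

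Of these 82 genes, 8 were called lower in late mice in both treatments, as were 3.06% of all genes. They were Ddx17, a helicase that assists the Microprocessor, Tarbp2, the RNA-binding partner of Dicer1, Ago4, Tnrc6a and Tnrc6c, which link Argonaute to the deadenylases, Pan2 and Pan3, which form a deadenylase, and the exonuclease gene Rexo4. Ddx17 was between 7.82 and 8.41 log2 CPM in Early Vehicle mice and between 6.82 and 7.18 in Late Vehicle mice, a fall of 1.11 (SE 0.09, adjusted p = 8.51e-09 in limma), and it fell by 1.01 in SAFit2 mice (SE 0.10, adjusted p = 4.05e-07). The groups did not overlap in either treatment, and the Ddx17 ranges were far apart.

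Argonaute partners followed the same order. Tnrc6a fell by 0.84 (SE 0.12, adjusted p = 3.44e-05, limma) between the Vehicle groups and by 0.83 (SE 0.13, adjusted p = 0.00013) between the SAFit2 groups, without overlap in either. Tnrc6c fell by 0.39 and 0.62, and Tnrc6b fell by 0.40 in Vehicle mice (adjusted p = 0.0198) while its value in SAFit2 mice was -0.27. Ago4 fell by 0.70 and 1.17, with adjusted p of 0.041 and 0.00164. Of the 7 tested genes of the Argonaute list beside the members, 4 were called lower in each treatment, against 5.82% and 11.3% of all genes. Those between the Vehicle groups were Tnrc6a, Tnrc6b, Tnrc6c and Ago4, and between the SAFit2 groups the helicase gene Mov10 (-1.23 ± 0.29) took the place of Tnrc6b.

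Tarbp2 went from a mean of 3.11 ± 0.45 (SD, n = 6) in Early Vehicle to 2.16 ± 0.41 (n = 6) in Late Vehicle mice, and from 3.20 ± 0.48 (n = 5) to 1.75 ± 0.50 (n = 5) in SAFit2 mice. Pan2 fell by 1.40 (SE 0.23, adjusted p = 0.000298, limma) and 1.42 (SE 0.26, adjusted p = 0.00062), without overlap in either treatment. Pan3 fell by 1.05 in Vehicle mice without overlap and by 0.61 in SAFit2 mice. Rexo4, of the same broad exonuclease class as Eri1, fell by 0.37 and 0.50 without overlap in either, and it was the only called gene of the 8 tested in the Eri1-related list between the Vehicle groups.

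Other calls were made in 1 treatment only, and the difference between the treatments is not claimed from that. Between the Vehicle groups these were Lin28b, which blocks the processing of let-7 precursors (-2.03, adjusted p = 9.71e-05, limma), the nucleotidyltransferases Tent2 (-0.68) and Tut4 (-0.67), the polyadenylation factor Cstf2 (-0.59) and the cap-binding Ncbp2 (-0.54). Lin28b rested on 7 to 100 reads a library in those mice. Between the SAFit2 groups the lower ones included Srrt (-0.37), Zswim8 (-0.73), Rexo1 (-0.83), Upf1 (-0.66), Snrpb (-0.46), Edc4 (-0.95), Dcp1a (-0.59) and Pld6 (-1.53), the last on 1 to 27 reads a library. After GC and length correction Srrt was at -0.11 (adjusted p = 0.248, limma) and Zswim8 at -0.25 (adjusted p = 0.0655). Rexo1 was then at -0.31 (adjusted p = 0.126) and Upf1 at -0.24 (adjusted p = 0.112), so these calls were lost. The higher ones included the export GTPase Ran (0.40), the cleavage factor Cpsf2 (0.44) and the exosome genes Exosc1 (0.62), Exosc9 (0.45) and Mtrex (0.33). After the same correction Ran (0.277, adjusted p = 0.00593, limma) and Cpsf2 (0.265, adjusted p = 0.0472) were still called.

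In the late SAFit2 against late Vehicle comparison 10 of the 82 wider genes were called, 12.2% against 12.1% of all genes, so the share was that of the background. The 6 genes called higher were Ddx6 (0.45), Lin28b (1.05), Ncbp2 (0.41), Cnot2 (0.41), Cnot7 (0.45) and 1 more, and the 4 called lower were Edc4 (-0.75), Zswim8 (-0.70), Snrpb (-0.51) and Pld6 (-1.35). Edc4 is a decapping scaffold, Ddx6 a decapping helicase and Cnot7 a deadenylase subunit, while Zswim8 belongs to the ligase that degrades Argonaute bound to certain targets. Adjusted p for these were between 0.0324 and 0.0491 for the named genes. With median centring 12 were higher and 3 lower, where 1139 and 924 of all 16765 genes were called. After GC and length correction none was called, with 15 at an unadjusted p under 0.05, as were 2526 of 16213 genes. The count was 0 without Late SAFit2 replicate 2, 4 or 5 or without Late Vehicle replicate 1, 3, 4 or 5. Over all 16765 genes the calls in those fits were 8 without Late SAFit2 replicate 4 and 1 in each of the others. Without Early SAFit2 replicate 4 the count was 6, with 1189 of all genes called. It was 19, 21, 22 and 32 without Early Vehicle replicate 5, Late SAFit2 replicate 1, Late Vehicle replicate 2 and Late Vehicle replicate 6. Of all genes 2914, 3537, 3790 and 4971 were then called.

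In the early comparison none of the 82 was called by limma and 2 had an unadjusted p under 0.05. Lin28a, Trex2, Symplk and Piwil1 of the lists had no match in the table and were not analysed here.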

How the data were processed

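Polyadenylated RNA of 22 mice was sequenced from stranded libraries. The authors aligned reads to mm10, counted them per gene with featureCounts, scaled them by TMM and deposited log2 CPM values; the submitters' processing notes also name Trimmomatic, HISAT2 and edgeR, without versions. From these log2 values whole reads were recovered for 100% of values checked, within 0.02 reads. Genes at a log2 CPM of at least -1 in at least 5 libraries were kept. All 4 groups were fitted together in limma 3.58.1 (R 4.3.3) with a variance trend and Benjamini-Hochberg adjustment over 16765 genes. A call needed a change of at least 1.2 times beside an adjusted p under 0.05; for the mean effect an unadjusted p under 0.05 was used. Exact permutation tests were two-sided. GC content and length came from GENCODE M21, for 96.49% of genes. The correction subtracted loess trends (span 0.5) on both from each library. Alternatives included limma voom on recovered reads, other filters, scalings, weights and leaving out each mouse; the comparison of SAFit2 groups was added after the data were seen. The members and lists were chosen with earlier results of these data known. Wider genes were named as the up to 3 called genes of lowest p in each list and comparison, with the 5 genes most and least like Eri1, of which 1 is not reported here; Mov10 and genes called lower in both timing comparisons outside this rule were named after their values were seen. The code was tested on simulated data. Mice had separate libraries; p-values measure the spread between mice.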

Additional observations from a re-analysis of the deposited data

Results flagged for a closer look

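In 2 of the 40 sets of 1 gene in 1 group that were checked, a mouse stood far from the rest of its group, and chance alone marks about 1 in 20 such sets, which is 2 here. Eri2 in Early Vehicle replicate 4 was at 1.096 log2 CPM, with the nearest mouse of the group at 2.615, a gap of 0.714 of the group's range against a limit of 0.625. Dgcr8 in the same mouse was at 4.266 log2 CPM, with the nearest mouse at 4.731 and a gap of 0.666 of the range. The part of this library in either value was not tested.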

How the results depend on the processing

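Counts over the 9 tested genes, which were 0 for the late, mean and early minus late effects, 1 between the Vehicle groups and 0 between the SAFit2 groups, changed as follows. Library quality weights gave 2, 2, 2, 4 and 3. Of all 16765 genes, weights called 6381 late, 5082 for early minus late, 5067 between the Vehicle groups and 5162 between the SAFit2 groups. For the mean effect 6396 genes then had an unadjusted p under 0.05. The replicate block gave 1 late (Eri3) and 1 for the mean effect, an unadjusted p gave 2 late, and quantile normalization gave 1 for the mean effect. Over all 16765 genes these were 3157, 3006, 5791 and 1985. Between the Vehicle groups a pseudocount of 2 CPM, the mice of the contrast alone and voom each gave 2. All genes called there were 1609, 1204 and 1838 of 16765. Between the SAFit2 groups the stricter filter, the GC and length correction and that correction with the replicate block each gave 1, and voom gave 2. All genes called there were 3292 of 13540, 2557 and 2489 of 16213, and 2991 of 16765. The 10 wider genes called late became 18 with the stricter filter, 33 with weights, 19 with the replicate block and 5 with voom. The count was 0 without a variance trend, with the mice of the contrast alone, and with the GC slope as a covariate. It was also 0 with the GC and length correction, with or without the block. Over all genes the late calls were 2481 of 13540 with the stricter filter. Of 16765 genes they were 6381 with weights, 3157 with the block and 876 with voom. Without a variance trend they were 62, and they were 0 in the other settings that left no wider gene. Leaving out single mice gave 0 to 2 late, 0 to 2 for the mean effect, 0 for the early and early minus late effects, 0 to 2 between either pair of timing groups, and 0 to 32 wider genes. Late calls among the 9 were 1 without Early Vehicle replicate 5, Late SAFit2 replicate 1 or Late Vehicle replicate 6, and 2 without Late Vehicle replicate 2. All genes called late in those fits were 2914, 3537, 4971 and 3790 of 16765. With single mice left out the late calls over all genes ran from 1 to 4971. Vehicle calls were 2 without Late SAFit2 replicate 2 or 5, and 0 without Late Vehicle replicate 5. All genes called between the Vehicle groups were then 1501, 1698 and 1088. Some directions turned. With the GC and length correction, alone, with the block, and with the GC slope as a covariate, Eri1 early minus late was 0.025, 0.025 and 0.037, Eri3 late was 0.043, 0.050 and 0.017, Eri3 mean 0.027, 0.034 and 0.00105, Eri3 early minus late -0.032, -0.032 and -0.033, and Eri3 between the SAFit2 groups 0.126, 0.126 and 0.148. Slbp with the covariate was -0.058 late, -0.050 mean, 0.018 early minus late and -0.066 between the SAFit2 groups. Drosha early minus late was -0.00822 with either GC and length correction. The cause was not tested. A further 54 sign changes, and 46 with a mouse left out, were of values within 1 SE of 0 and are not counted here. Same-numbered mice had r of -0.236 to 0.317 over 31 pairs, so the numbers were not taken to pair mice. Alternatives added after seeing the data include leaving Late SAFit2 replicate 5 out of each member value.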

Other observations

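Transcripts that carry microRNAs were read as substrates of the same enzymes. Of 39 microRNA loci and host genes measured, 30 were tested. Between the Vehicle groups 7 were called lower in late mice and none higher, and between the SAFit2 groups 7 were lower and 1 higher, with median log2 fold changes of -0.41 and -0.50. Of all genes 5.82% and 11.3% were called lower, with medians of 0.00691 and -0.07. Of the called loci, Mir1906-2, Mir1249, Mir3064 and Mir5125, lower in both comparisons, were weak, with mean log2 CPM between -0.99 and -0.14. So was Mir331, at -0.48, which was called between the SAFit2 groups. Mirg, a noncoding host in the imprinted Dlk1-Dio3 region, was named after its values were seen. It went from a mean of 2.89 ± 0.65 (SD, n = 6) log2 CPM in Early Vehicle to 0.01 ± 0.74 (n = 6) in Late Vehicle mice, and from 2.53 ± 0.87 (n = 5) to -0.45 ± 0.69 (n = 5) in SAFit2 mice. It fell by 2.88 (SE 0.39, adjusted p = 3.08e-05, limma) and by 2.98 (SE 0.43, adjusted p = 6.79e-05).

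In late mice 1 of the 30 was called under SAFit2, where 12.1% of all genes were called and 6.72% were called lower. It was the miR-9 host Mir9-3hg, which fell by 0.71 (SE 0.21, adjusted p = 0.0396, limma). After GC and length correction it was at -0.61 with an adjusted p of 0.156, and without Late SAFit2 replicate 5 its adjusted p was 0.0858. Its Late SAFit2 mice lay between 2.04 and 3.33 log2 CPM and its Late Vehicle mice between 3.09 and 3.64, so the groups overlapped. The mature sequence from this host is shown because it is the microRNA of the only such call (RefSeq, GRCm38.p6, seed in capitals).
miR-9-5p, chr7:79505279-79505301, plus strand: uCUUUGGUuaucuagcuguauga

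Histone genes whose mRNAs end in the stem-loop bound by Slbp were found under 28 current symbols, of which 25 were tested. In late mice 3 were called lower under SAFit2, H2ac18 (-0.96), H2ac19 (-0.92) and H3c13 (-1.99). That is 3 of 25 against 6.72% of all genes called lower there. H3c13 was weak, with a mean log2 CPM of -1.60. After GC and length correction, or with the GC slope as a covariate, limma called no gene of the table in that comparison, with 2526 and 761 genes at an unadjusted p under 0.05. These genes have near-identical copies, and the libraries select polyadenylated RNA, which most such mRNAs lack, so the values are uncertain.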
